A study of Mus musculus with 6 samples.

Results

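The 44 genes described here encode the enzymes that build, sulfate and trim heparan sulfate, chondroitin sulfate, dermatan sulfate and hyaluronan, the glycosaminoglycan chains of the cell surface and matrix. They were taken by name from a deposited table of 35275 gene identifiers of a mouse ovarian cancer line. The genes were chosen by enzyme function with differences between the groups already known, and Hs6st2 and Dse were singled out because of their measured difference. The contrast between the groups is therefore given for these genes as a description, without p-values. Messenger RNA was sequenced in 6 libraries of ID8-KMF cells, a C57Bl6/J line obtained from ID8 ovarian cancer cells by passage in mice. The cells of both groups were Rgnef-/-, lacking the guanine nucleotide exchange factor encoded by Arhgef28. The GFP-Rgnef group (3 libraries) carried a lentivirus that re-expressed GFP-tagged Rgnef, and the knockout group (3 libraries) carried no construct. All cells were grown subconfluent in 2D on dishes with 0.2% Matrigel. The sources used here name neither the promoter of the construct nor the clonal origin of either line, and they do not say if replicate libraries were grown as separate cultures. P-values for other genes below therefore measure library-to-library spread only, and that spread may be technical. Lentivirus, GFP tag and Rgnef came together and cannot be told apart, and the unedited parental line was not analysed here. In bulk RNA, fewer cells expressing a gene and less RNA per cell cannot be told apart.

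Heparan sulfate and chondroitin or dermatan sulfate chains are built in the Golgi on the serine residues of core proteins, starting from a shared linker of 4 sugars. Chain polymerases then add alternating sugars, and sulfotransferases place sulfate at set positions. The pattern of sulfate decides which growth factors, chemokines and matrix proteins a chain can bind. Heparan sulfate is additionally edited outside the cell by endosulfatases that remove sulfate. Hyaluronan differs from the others: it is made at the plasma membrane, carries no sulfate and has no core protein. In ovarian cancer, heparan sulfate and chondroitin sulfate chains are known for their part in growth factor signalling and in attachment to the peritoneal lining.

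The implied depth was 15898965 to 17977069 reads per library. Arhgef28, on chromosome 13 from 97899469 to 98206439 on the minus strand (mm10), was at 57.2, 50.9 and 50.02 FPKM (fragments per kilobase of transcript, scaled to the depth of a library) in GFP-Rgnef replicates 1 to 3. It was at 0.116, 0.110 and 0.134 FPKM in the knockout replicates, in the direction of the labels. Of 8 markers of ovarian surface or mesothelial cells, 6 were measured at high levels (summed level of all 8, 1649 to 2458 FPKM with GFP-Rgnef and 1545 to 2476 FPKM in the knockout), while Krt7 and Lrrn4 were below 0.308 FPKM in every library. Krt18 was called lower in the knockout (difference -0.51, limma adjusted p = 0.00625). Upk3b was at 119.5, 115 and 42.6 FPKM with GFP-Rgnef and 319, 318 and 116 FPKM in the knockout, with overlap through replicate 3 (difference 1.43, limma adjusted p = 0.0878, not called). Of 5 leukocyte markers, Adgre1 and Cd3e were at 0 in every library, and the summed level (2.30 to 3.70 FPKM with GFP-Rgnef, 2.24 to 3.88 FPKM in the knockout) was almost all Cd68. The 4 endothelial markers summed to 0.150 to 0.204 FPKM and 0.0824 to 0.263 FPKM, with Kdr at 0. The 4 fibroblast markers summed to 1.51 to 3.62 FPKM with GFP-Rgnef and to 4.41 to 10.4 FPKM in the knockout, mostly Col1a1, with Pdgfrb at 0 in 4 of 6 libraries and Thy1 at 0.576 FPKM or less. Of these 4, Pdgfra and Col1a1 were tested and neither was called (both were higher in every knockout library than in every GFP-Rgnef library, limma adjusted p = 0.114 and 0.051), and their part in the results below was not tested. The library numbered 3 stood apart in both groups: Krt19 was at 794 FPKM in GFP-Rgnef replicate 3 against 1412 and 1359 FPKM in the other GFP-Rgnef libraries, and at 679 FPKM in knockout replicate 3 against 1309 and 1268 FPKM. The enzyme genes showed a smaller shift in replicate 3, in the opposite direction to Krt19. Over the 32 that were tested, replicate 3 lay above the other libraries of its group by a median of 0.08 on the log2 scale with GFP-Rgnef and 0.06 in the knockout, and the same medians over all tested genes were 0.01 and 0.02.

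The cells expressed a nearly complete set of heparan sulfate and chondroitin or dermatan sulfate enzymes. Some relatives were unequal, with nearly all of the level in 1 gene (Xylt2, Hs3st1, Papss1, Csgalnact2). Others were both well expressed (Ext1 and Ext2, Sulf1 and Sulf2, Chst11 and Chst12). Of the 44 genes, 19 were at 10 FPKM or more in every library. Another 12 were below 1 FPKM in every library, reaching at most 0.615 FPKM and 40 reads, and these 12 did not pass the filter for testing (a mean of 0.5 FPKM over the 6 libraries). They were Hs6st3, Hs3st3a1, Hs3st3b1, Xylt1, Chsy3, Csgalnact1, Chst3, Ust, Has1, Has2, Has3 and Papss2, of which Hs3st3a1 and Chsy3 were at 0 in all 6 libraries. The order of the most abundant genes was nearly shared by the groups. Ugdh, Sulf2, Ext1 and Ext2 took ranks 1 to 4 by mean FPKM in both, followed by Hs3st1 and Hs6st1, which exchanged ranks 5 and 6, and by Sulf1 and Hs2st1 at ranks 7 and 8. Ext1 and Ext2, neighbours in that order, did not overlap with GFP-Rgnef (68.3 ± 2.43 and 62.9 ± 2.83 FPKM; SD, n = 3) and overlapped in the knockout (77.0 ± 10.4 and 76.7 ± 4.25 FPKM). The next neighbours, Hs3st1 and Hs6st1, overlapped with GFP-Rgnef (36.0 ± 5.97 and 35.9 ± 0.228 FPKM), and in the knockout every Hs6st1 value was above every Hs3st1 value.

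**Figure D1:**
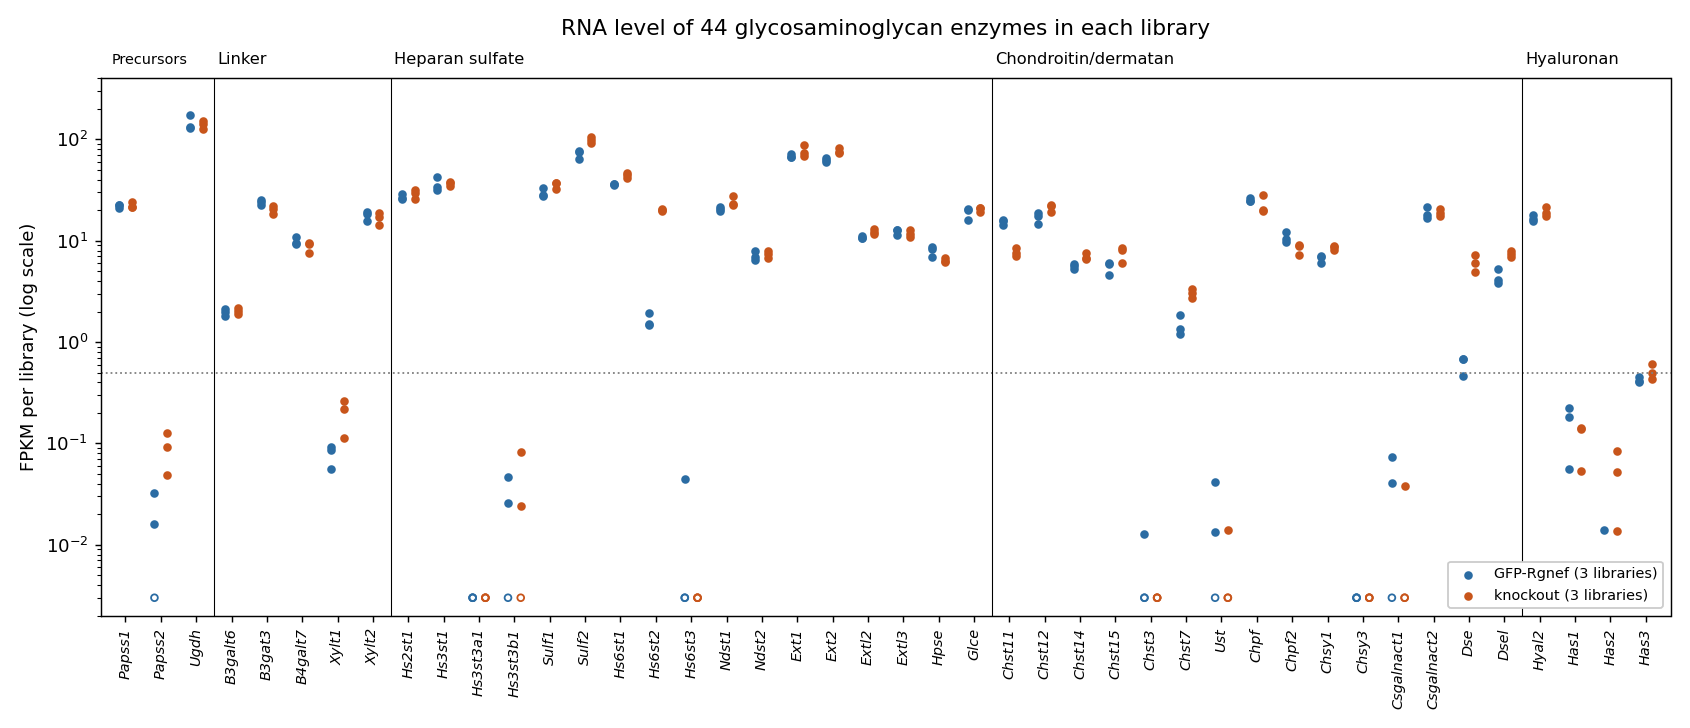
Level of each of the 44 enzyme genes in every library, in FPKM on a log axis, grouped by chain type (blue, 3 GFP-Rgnef libraries; orange, 3 knockout libraries; open circles at the lower edge, 0 FPKM; dotted line, the 0.5 FPKM filter). Hs6st2 and Dse show the widest gaps between the colours, Chst11 is the gene whose knockout points lie clearly below, and 12 genes stay below 1 FPKM in all 6 libraries.

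Most of the 32 tested genes lay within a narrow band, and a few stood well outside it. All differences below are knockout minus GFP-Rgnef in log2(FPKM + 1), where the added 1 shrinks the change of weakly expressed genes, and a call is an adjusted p below 0.05 in limma over all 11500 genes tested. Of the 32, 7 were called higher in the knockout (Hs6st2, Dse, Chst7, Dsel, Sulf2, Hs6st1 and Ext2), 1 was called lower (Chst11) and 24 were not called. Over all 11500 genes, 8.04% were called higher and 5.34% were called lower. All 3 knockout libraries lay above all 3 GFP-Rgnef libraries for 12 of the 32 genes and below them for 4, where 16.7% and 16.7% of all tested genes did so, and the groups overlapped for 16. Counted in either direction, voom on recovered reads called 9 of the 32 and 13.7% of all tested genes, and 17 of the 32 had an unadjusted p below 0.05 in limma, as did 28.4% of all tested genes. Because these genes were listed with this contrast known, nothing is read from these counts. The median difference over the 32 genes was 0.13, against -0.02 over all tested genes, and 27 of the 32 had a ratio of group means within 1.5-fold in either direction. The 5 outside that band were Hs6st2, Dse, Chst7, Dsel and Chst11. The count called higher was 4 without GFP-Rgnef replicate 2, 3 without knockout replicate 2 and 10 without both libraries numbered 3. The count called lower was 2 without knockout replicate 3 and 2 without both libraries numbered 3.

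**Figure D2:**
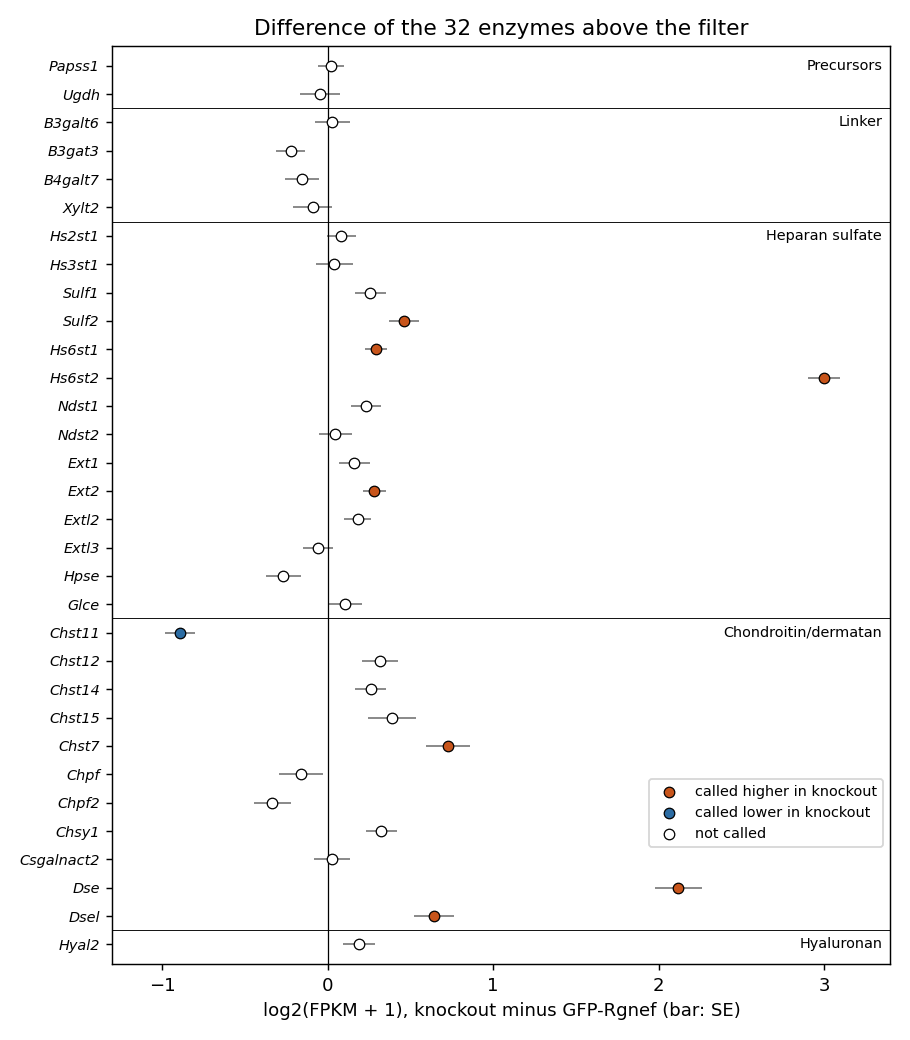
Difference between the groups for the 32 tested enzyme genes on the log2(FPKM + 1) scale, knockout minus GFP-Rgnef, with bars of 1 standard error and filled points for genes called by limma. Hs6st2 (3.0) and Dse (2.12) lie far to the right of the rest, Chst11 (-0.89) lies alone at the left, and most of the other genes are within 0.5 of 0.

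**Figure D3:**
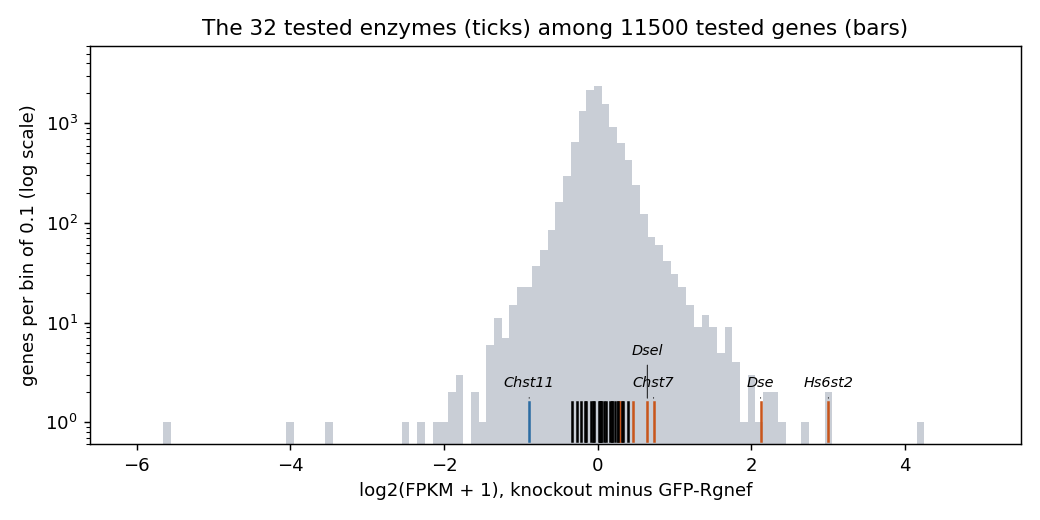
Histogram of the same difference over all 11500 tested genes in bins of 0.1 (log count axis), with a tick for each of the 32 tested enzyme genes (orange, called higher; blue, called lower; black, not called). Most enzyme genes lie within 0.5 of 0, and Hs6st2 and Dse stand in its sparse right tail.

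The 2 tested precursor genes among the 44, Ugdh and Papss1, were at similar levels in both groups. Other genes of sugar and sulfate supply are given below. Ugdh, the dehydrogenase that makes UDP-glucuronic acid for all 4 chain types, was the most abundant of the 44 genes at 133, 130.5 and 176 FPKM with GFP-Rgnef and 127, 142 and 154 FPKM in the knockout. The groups overlapped and the difference was -0.05. Papss1, a synthase of the sulfate donor PAPS, was at 21.2 to 22.6 FPKM with GFP-Rgnef and 21.4 to 24.1 FPKM in the knockout, with a difference of 0.02. Its relative Papss2 stayed at 0.126 FPKM or less (2, 0 and 1 reads with GFP-Rgnef, 6, 8 and 3 in the knockout), so that the transcript for the sulfate donor came almost wholly from 1 of the 2 genes. Neither Ugdh nor Papss1 was called by limma or voom, and neither had an unadjusted p below 0.05 in limma.

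The linker enzymes attach xylose, 2 galactoses and glucuronic acid to the core protein. Of the 4 tested, 0 were called, where 8.04% of all tested genes were called higher and 5.34% lower. This count was also 0 of 4 with voom on recovered reads (13.7% over all genes). An unadjusted p below 0.05 in limma was seen for 1 of 4 (28.4% over all genes). Xylt2, a xylosyltransferase that starts the linker, was at 19.4, 18.5 and 15.8 FPKM with GFP-Rgnef and 19.0, 14.3 and 17.1 FPKM in the knockout, and its relative Xylt1 was at 0.263 FPKM or less (3, 3 and 2 reads with GFP-Rgnef, 8, 4 and 9 in the knockout). B4galt7, which adds the first galactose, differed by -0.15 and B3galt6, which adds the next one, by 0.03. B3galt6 was the lowest linker enzyme tested, at 1.798 to 2.17 FPKM over all 6 libraries. B3gat3, which adds the glucuronic acid, was at 22.5, 24.04 and 25.2 FPKM with GFP-Rgnef and 22.0, 18.4 and 20.7 FPKM in the knockout. The B3gat3 libraries did not overlap (difference -0.22, SE 0.0878), with knockout replicate 1 only slightly below the lowest GFP-Rgnef library. Summed over the 5 linker genes, the level was 53.8 ± 0.355 FPKM with GFP-Rgnef and 48.2 ± 5.02 FPKM in the knockout (SD, n = 3).

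Heparan sulfate genes had 14 of 17 members tested, of which 4 were called higher (8.04% over all genes) and 0 lower (5.34%). With voom 4 of the 14 were called in either direction (13.7% over all genes), and 7 had an unadjusted p below 0.05 in limma (28.4% over all genes). Their median difference was 0.17 and the summed level of the 17 genes was 411 ± 8.95 FPKM with GFP-Rgnef and 501 ± 11.2 FPKM in the knockout (SD, n = 3). The 3 libraries of each group did not overlap in that sum.

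Chain elongation rests on Ext1 and Ext2, the paired subunits of the heparan sulfate polymerase. Ext2 was at 63.2, 65.6 and 59.97 FPKM with GFP-Rgnef and 81.6, 73.7 and 74.9 FPKM in the knockout, 1.22-fold higher by group means (difference 0.28, SE 0.0690). All knockout libraries were above all GFP-Rgnef libraries, but the call rested on the full set of libraries: it was lost without any 1 of GFP-Rgnef replicates 1, 2 and 3 or knockout replicates 1 and 2, with differences of 0.24 to 0.31, and in limma without trend (0.28). Ext1 was at 66.5, 67.4 and 71.1 FPKM with GFP-Rgnef and 73.4, 68.9 and 88.7 FPKM in the knockout, with overlap and a difference of 0.16 (SE 0.0958). Extl3, which adds the first N-acetylglucosamine that commits the linker to heparan sulfate, was level at 11.5 to 12.8 FPKM and 10.9 to 12.8 FPKM (difference -0.06). Extl2, an N-acetylglucosamine transferase that acts on a phosphorylated linker, was at 11.2, 10.6 and 10.6 FPKM with GFP-Rgnef and 11.7, 13.1 and 12.3 FPKM in the knockout. Its libraries did not overlap, and the difference was 0.18 (SE 0.0793), not called.

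The early modifying enzymes tested were expressed in both groups without a call, where 8.04% of all tested genes were called higher and 5.34% lower. Of Ndst1 and Ndst2, 1 had an unadjusted p below 0.05 in limma (28.4% over all genes), and Glce, Hs2st1 and Hs3st1 did not. Ndst1, an N-deacetylase and N-sulfotransferase that makes the first modification of the chain, was at 20.4, 21.6 and 19.4 FPKM with GFP-Rgnef and 27.4, 22.9 and 22.6 FPKM in the knockout (difference 0.23, SE 0.0921). The groups did not overlap, and knockout replicate 1 was the highest. Ndst2, its relative, differed by 0.05, and Ndst1 made up 74.3 ± 2.81% of the summed Ndst1 and Ndst2 level with GFP-Rgnef and 76.7 ± 2.45% in the knockout (SD, n = 3). Glce, the epimerase that turns glucuronic into iduronic acid, was at 16.2 to 20.8 FPKM with GFP-Rgnef and 19.1 to 21.1 FPKM in the knockout, with a difference of 0.10. Hs2st1, which sulfates the 2-O position, was at 27.3 ± 1.64 and 29.0 ± 2.69 FPKM with a difference of 0.08. Of the 3-O-sulfotransferases, which place a rare late sulfate, Hs3st1 carried the level at 31.4 to 42.7 FPKM with GFP-Rgnef and 34.9 to 38.3 FPKM in the knockout (difference 0.04). Hs3st3b1 was at 0.0819 FPKM or less and Hs3st3a1 at 0.

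Among the 6-O-sulfotransferases, Hs6st2, which was singled out for its difference, differed more between the groups than its relative Hs6st1. Hs6st2, on chromosome X from 51387212 to 51681856 on the minus strand, was at 1.497, 1.485 and 1.93 FPKM with GFP-Rgnef and 19.6, 20.4 and 20.1 FPKM in the knockout. These values rest on 68, 63 and 89 reads against 940, 948 and 900 reads. The knockout libraries lay close together and far above the GFP-Rgnef libraries, with a ratio of group means of 12.2 and a difference of 3.0 (SE 0.0969). Hs6st1, on chromosome 1 from 36068400 to 36106446 on the plus strand, makes the same kind of modification. It was at 35.7, 36.1 and 35.9 FPKM with GFP-Rgnef and 46.5, 44.8 and 41.6 FPKM in the knockout, 1.23-fold higher (difference 0.29, SE 0.0672) without overlap. Its call was lost without any 1 of GFP-Rgnef replicates 1 and 2 and knockout replicates 1 and 2, with differences of 0.26 to 0.30. Hs6st3 had signal in 1 of the 6 libraries, at 0.0445 FPKM. Hs6st1 was the more abundant gene in every library while the make-up of the pair differed. Hs6st2 supplied 4.03, 3.94 and 5.10% of the summed Hs6st level with GFP-Rgnef and 29.6, 31.3 and 32.6% in the knockout, and the sum was 37.6 ± 0.343 FPKM against 64.4 ± 2.27 FPKM (SD, n = 3).

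The sequence just upstream of a RefSeq transcript start (GRCm38.p6, bases outside annotated exons) is printed here for 2 pairs of relatives that differed in how they moved, the 6-O-sulfotransferases Hs6st1 and Hs6st2 and the chondroitin 4-O-sulfotransferases Chst11 and Chst12. Each is written 5′ to 3′ on the strand of its gene in lower case, with capitals on matches to the SP1 motif GGGCGG on either strand. The stretches are chr1:36068150-36068399 on the plus strand for Hs6st1, chrX:51680566-51680727 on the minus strand for Hs6st2, chr10:82985247-82985496 on the plus strand for Chst11 and chr5:140505359-140505549 on the plus strand for Chst12.
Hs6st1: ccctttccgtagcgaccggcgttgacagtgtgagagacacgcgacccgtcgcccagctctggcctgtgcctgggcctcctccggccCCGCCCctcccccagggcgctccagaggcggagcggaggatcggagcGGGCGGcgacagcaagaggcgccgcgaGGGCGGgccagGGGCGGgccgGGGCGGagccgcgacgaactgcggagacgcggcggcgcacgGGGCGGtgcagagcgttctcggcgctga
Hs6st2: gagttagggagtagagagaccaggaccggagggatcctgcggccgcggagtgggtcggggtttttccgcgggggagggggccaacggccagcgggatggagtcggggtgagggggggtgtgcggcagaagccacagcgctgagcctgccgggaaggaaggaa
Chst11: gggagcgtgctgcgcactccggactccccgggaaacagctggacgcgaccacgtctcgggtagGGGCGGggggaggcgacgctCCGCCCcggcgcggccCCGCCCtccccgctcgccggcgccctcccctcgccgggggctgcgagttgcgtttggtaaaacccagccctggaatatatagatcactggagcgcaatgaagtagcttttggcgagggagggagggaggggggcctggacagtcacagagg
Chst12: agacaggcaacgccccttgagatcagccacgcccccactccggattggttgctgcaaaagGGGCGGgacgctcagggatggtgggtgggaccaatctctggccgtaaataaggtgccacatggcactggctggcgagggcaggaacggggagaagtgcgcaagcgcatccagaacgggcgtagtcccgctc
The Hs6st1 stretch held 6 matches, the Hs6st2 stretch 0, the Chst11 stretch 3 and the Chst12 stretch 1. The stretches differ in length (250, 162, 250 and 191 bases), so these counts are not directly comparable. The Hs6st2 stretch lies inside the annotated span of the gene. Another Hs6st2 window, chrX:51681603-51681852, lies wholly in annotated exons and held no match. In windows of 250 bases, exons included, 32.7% of 32851 RefSeq promoters held the motif. Counted by gene, with a match in any of its promoters, 26 of the 35 enzyme genes with a promoter entry held it. So did 5 of the 7 called higher (Chst7, Dse, Dsel, Hs6st1 and Sulf2). A share per promoter and a count per gene are unlike measures, here and for the motifs below. The whole Dse window lies in annotated exons. The other motifs searched on both strands were TEAD (GGAATG, 12.6% of all promoters, 6 of the 35 genes), AP-1 (TGANTCA, 6.75%, 1 gene), E-box (CACGTG, 6.02%, 5 genes) and the antioxidant response element (TGACNNNGC, 10.2%, 6 genes). Among the 7 genes called higher, Ext2 held a TEAD and an E-box match, Dse held an antioxidant response element match, and 0 held an AP-1 match. A match is a description of letters, not a binding site.

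The enzymes that take 6-O-sulfate off again were also among the most abundant. Sulf2, an extracellular endosulfatase, was at 74.6, 76.8 and 63.5 FPKM with GFP-Rgnef and 105, 99.1 and 92.3 FPKM in the knockout, 1.38-fold higher (difference 0.46, SE 0.0886) with no overlap. Its call was lost without knockout replicate 2 (difference 0.46), and 154 of its exon bases overlap Ncoa3 on the opposite strand, a gene at a mean of 25.2 FPKM. Sulf1, its relative with the same activity, was at 28.0, 28.2 and 33.2 FPKM with GFP-Rgnef and 37.4, 37.3 and 32.6 FPKM in the knockout. Here the replicates numbered 3 crossed over between the groups; the difference was 0.26 (SE 0.0932), not called, and it was called without GFP-Rgnef replicate 3 (0.34) and without both libraries numbered 3 (0.40). Summed over both genes, the endosulfatase level was 101 ± 4.21 FPKM against 135 ± 8.96 FPKM (SD, n = 3), with Sulf2 at 70.5 ± 4.22% and 73.4 ± 0.676% of it. The ratio of the Hs6st sum to the Sulf sum was 0.363, 0.359 and 0.391 with GFP-Rgnef and 0.463, 0.478 and 0.495 in the knockout, without overlap. Hpse, the heparanase that cuts the chain, went the other way at 6.86, 8.77 and 8.26 FPKM with GFP-Rgnef and 6.77, 6.11 and 6.38 FPKM in the knockout. The lowest GFP-Rgnef library and the highest knockout library nearly met, and the difference of -0.27 (SE 0.105) was not called.

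Chondroitin and dermatan sulfate genes had 11 of 15 members tested, with 3 called higher (8.04% over all genes), 1 lower (5.34%) and 7 not called. With voom 5 of the 11 were called in either direction (13.7% over all genes), and 9 had an unadjusted p below 0.05 in limma (28.4% over all genes). Their median difference was 0.32, and the summed level of the 15 genes was 111 ± 2.36 FPKM with GFP-Rgnef and 119 ± 5.19 FPKM in the knockout (SD, n = 3). Chondroitin chain elongation had 4 of 6 genes tested and 0 called. Of these 4, voom called 1, Chsy1 (13.7% over all genes), and 2 had an unadjusted p below 0.05 in limma (28.4% over all genes). Csgalnact2, which adds the first N-acetylgalactosamine that commits the linker to chondroitin, was at 16.6 to 21.4 FPKM and 17.5 to 20.4 FPKM with a difference of 0.03, while its relative Csgalnact1 was at 0.0743 FPKM or less. Chsy1, a chondroitin synthase, was at 6.86, 7.16 and 5.97 FPKM with GFP-Rgnef and 8.96, 8.08 and 8.71 FPKM in the knockout (difference 0.33, SE 0.0946). The groups did not overlap, and voom called it (0.37). Chpf2, a polymerizing factor that works with the synthases, was at 9.84, 10.4 and 12.2 FPKM with GFP-Rgnef and 9.01, 7.26 and 8.79 FPKM in the knockout, without overlap (difference -0.33, SE 0.112, not called). A total of 2466 of its exon bases overlap Smarcd3 on the opposite strand, a gene at a mean of 10.8 FPKM, and reads of the 2 cannot be told apart without strand. Chpf, its relative, was at 24.5, 24.7 and 26.6 FPKM against 20.2, 19.7 and 28.3 FPKM. Knockout replicate 3 was the highest of all 6 libraries and the other knockout libraries were the lowest; the difference of -0.16 was not called, and without knockout replicate 3 it was called at -0.32.

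Dse and Dsel encode the epimerases that convert glucuronic to iduronic acid in the chain and so turn chondroitin into dermatan sulfate. Dse, on chromosome 10 from 34151393 to 34207715 on the minus strand, was at 0.682, 0.462 and 0.685 FPKM with GFP-Rgnef and 4.91, 6.03 and 7.18 FPKM in the knockout. These values rest on 49, 31 and 50 reads against 373, 443 and 508 reads. Every knockout library was far above every GFP-Rgnef library, with a ratio of group means of 9.91 and a difference of 2.12 (SE 0.143). Dsel, on chromosome 1 from 111858702 to 111864918 on the minus strand, was at 4.11, 3.83 and 5.29 FPKM with GFP-Rgnef and 6.88, 7.33 and 8.02 FPKM in the knockout, 1.68-fold higher (difference 0.64, SE 0.121) without overlap. The Dsel call was lost without GFP-Rgnef replicate 2 (0.57) and without knockout replicate 2 (0.65). Dse made up 14.2, 10.8 and 11.5% of the summed epimerase level with GFP-Rgnef and 41.7, 45.1 and 47.3% in the knockout. The sum was 5.02 ± 0.863 FPKM against 13.5 ± 1.71 FPKM (SD, n = 3), so that Dsel was the more abundant of the pair in all 6 libraries, by a smaller margin in the knockout.

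Chst14 sulfates the 4-O position next to iduronic acid and so acts on the product of the epimerases. It was at 5.96, 5.61 and 5.28 FPKM with GFP-Rgnef and 6.57, 6.70 and 7.49 FPKM in the knockout, without overlap and not called (difference 0.26, SE 0.0927). The ratio of the summed epimerases to Chst14 was 0.803, 0.765 and 1.13 with GFP-Rgnef and 1.79, 1.99 and 2.03 in the knockout, and it did not overlap between the groups.

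Among the chondroitin sulfotransferases, relatives differed in direction. Chst11, a chondroitin 4-O-sulfotransferase on chromosome 10 from 82985498 to 83195900 on the plus strand, was at 14.3, 15.9 and 15.6 FPKM with GFP-Rgnef and 7.66, 7.13 and 8.54 FPKM in the knockout. It was 1.96-fold lower in the knockout by group means (difference -0.89, SE 0.0912) and rested on 686 to 1492 reads per library. Chst12, which makes the same modification, was at 18.9, 17.4 and 14.7 FPKM with GFP-Rgnef and 22.3, 22.6 and 19.3 FPKM in the knockout. The Chst12 groups did not overlap, and its difference of 0.32 (SE 0.108) was not called, though it was called without both libraries numbered 3 (0.29) and with the replicate number as a block (0.32). The summed level of both genes was 32.3 ± 1.70 FPKM with GFP-Rgnef against 29.2 ± 1.14 FPKM in the knockout (SD, n = 3). The groups did not overlap in that sum but nearly met (lowest GFP-Rgnef library 30.32 FPKM, highest knockout library 29.92 FPKM). Chst11 supplied 43.0, 47.7 and 51.5% of it with GFP-Rgnef and 25.6, 23.99 and 30.6% in the knockout.

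Chst7, a 6-O-sulfotransferase of chondroitin on chromosome X from 20059560 to 20097521 on the plus strand, was at 1.84, 1.20 and 1.34 FPKM with GFP-Rgnef and 2.72, 3.07 and 3.36 FPKM in the knockout. It was 2.09-fold higher (difference 0.73, SE 0.133) without overlap. Chst3, the other chondroitin 6-O-sulfotransferase listed, was at 0.0128 FPKM in 1 library and at 0 in the rest. Chst15, which adds a further 6-O-sulfate to 4-O-sulfated sugars, was at 6.03, 5.84 and 4.56 FPKM with GFP-Rgnef and 8.49, 8.09 and 6.01 FPKM in the knockout. Replicate 3 was the lowest of its group on both sides, the difference of 0.39 (SE 0.145) was not called, and it was called without knockout replicate 3 (0.53). Ust, which sulfates the 2-O position of uronic acid in these chains, was at 0.0412 FPKM or less. Over the 7 sulfotransferases the summed level was 44.9 ± 2.95 FPKM with GFP-Rgnef and 46.7 ± 1.69 FPKM in the knockout (SD, n = 3). Within this sum, Chst11 had 34.2 ± 3.68% with GFP-Rgnef and 16.7 ± 2.13% in the knockout, and Chst7 had 3.24 ± 0.649% and 6.56 ± 0.903%.

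**Figure D4:**
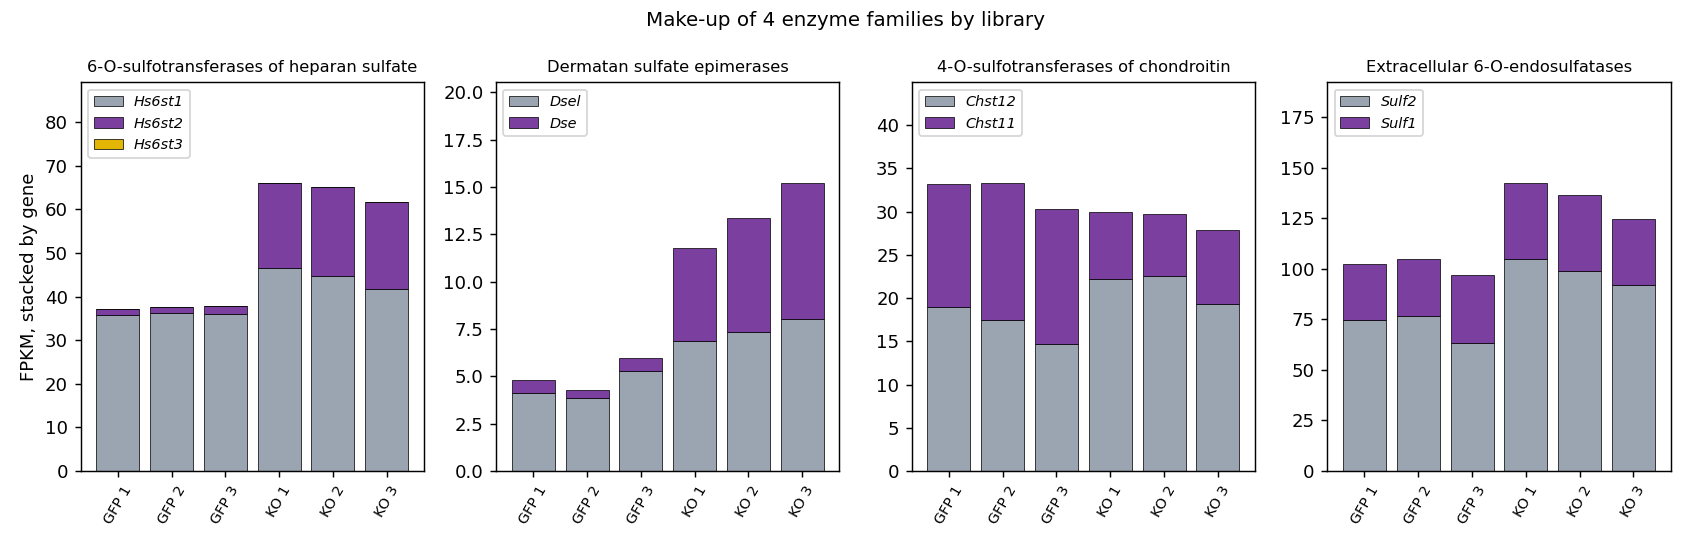
Stacked FPKM of related enzymes in each of the 6 libraries, for the heparan sulfate 6-O-sulfotransferases, the dermatan sulfate epimerases, the chondroitin 4-O-sulfotransferases and the endosulfatases. Hs6st2 and Dse take a larger share of their bars in all 3 knockout libraries. Chst11 takes a smaller share of a slightly lower bar, and the endosulfatase bars are taller in the knockout with a similar split.

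Hyaluronan synthesis was barely represented. The synthases Has1 and Has2 were at 0.222 FPKM or less and 0.0846 FPKM or less over the 6 libraries. Has3 was at 0.409, 0.404 and 0.449 FPKM with GFP-Rgnef and 0.491, 0.615 and 0.431 FPKM in the knockout. The Has3 groups overlapped, and 352 of its exon bases overlap Chtf8 on the opposite strand, a gene at a mean of 71.2 FPKM. Hyal2, a hyaluronidase that cuts long hyaluronan at the cell surface, was the only hyaluronan enzyme tested. It was at 15.8, 18.04 and 16.4 FPKM with GFP-Rgnef and 17.4, 18.7 and 21.7 FPKM in the knockout, with overlap and a difference of 0.19 (SE 0.0984), not called by limma or voom.

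Position on the genome was not used to list these genes. Differences were shifted upward on chromosomes 7 and 9, where 236 of 819 and 234 of 639 tested genes were called higher and 7 and 8 lower, with median differences of 0.24 and 0.28. The 4 tested enzyme genes there (Chsy1 and Chst15 on chromosome 7, Glce and Hyal2 on chromosome 9) were not called. With the median of each chromosome removed from each library, their differences were 0.07, 0.14, -0.19 and -0.10. Hs6st2 and Chst7 lie on chromosome X, where 52 of 369 tested genes were called higher and 10 lower and the median difference was 0.03. With chromosome medians removed, Hs6st2 differed by 2.94, Dse by 2.14, Chst7 by 0.66, Dsel by 0.67 and Chst11 by -0.87. The other 26 tested enzyme genes, 5 of them called higher and 1 lower, lie on the remaining chromosomes. On those chromosomes 403 of 9673 tested genes were called higher and 589 lower, with a median difference of -0.04.

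A further 83 genes of the pathway, listed by function, supply sugars and sulfate, break the chains down, bind hyaluronan or carry the chains. These lists too were drawn up with earlier results of these data known, so their calls and p-values are no independent evidence. Of these 83, 48 were tested, 3 were called higher, 5 were called lower and the median difference was 0.01, beside 8.04% and 5.34% over all genes tested. Without any filter 1 of them was called higher and 1 lower. The count called higher was 1 without GFP-Rgnef replicate 1 or GFP-Rgnef replicate 2, and 5 without both libraries numbered 3. The count called lower was 1 without GFP-Rgnef replicate 1, GFP-Rgnef replicate 2 or knockout replicate 2, 3 without knockout replicate 1 and 2 without knockout replicate 3. The 8 further sulfotransferase and polymerase relatives (such as Ndst3, Ndst4 and Extl1) were all below 1 FPKM, the highest being Ndst3 at 0.828 FPKM in knockout replicate 2. Of 17 supply genes, 16 were tested, 1 was called higher and 2 lower. Gfpt2, a rate-limiting enzyme of hexosamine synthesis, fell from 46.9 ± 3.72 to 31.4 ± 5.29 FPKM in the knockout (difference -0.57, SE 0.124, limma adjusted p = 0.0211). The sulfate transporter Slc26a2 fell from 6.59 ± 0.469 to 4.90 ± 0.203 FPKM (difference -0.36, SE 0.0908, limma adjusted p = 0.0357). Pgm3, another enzyme of hexosamine synthesis, lies on chromosome 9 and was higher at 6.30 ± 0.491 against 4.67 ± 0.181 FPKM (difference 0.36, limma adjusted p = 0.0367). With chromosome medians removed its difference was 0.07 (limma adjusted p = 0.705), its call was also lost without any 1 library but knockout replicate 3 (up to 0.126), and its exons overlap Dop1a on the opposite strand. The Gfpt2 call was lost without GFP-Rgnef replicate 1, GFP-Rgnef replicate 2 or knockout replicate 2 (limma adjusted p up to 0.0826). The Slc26a2 call was lost when any 1 library was left out (limma adjusted p up to 0.147) and with chromosome medians removed (0.0525). Without the filter the Gfpt2, Slc26a2 and Pgm3 calls were all lost (limma adjusted p 0.0561, 0.0973 and 0.101).

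Breakdown and binding genes showed no call. Of 16 genes listed under lysosomal breakdown, among them Sumf1, 13 were tested and 0 were called by limma or by voom. Over all genes limma called 8.04% higher and 5.34% lower, and voom called 13.7% in either direction. Of the 13, 3 had an unadjusted p below 0.05 in limma (28.4% over all genes), and the median difference was 0.14. The most abundant were Gusb, the lysosomal glucuronidase (57.3 ± 4.67 and 67.7 ± 6.49 FPKM, difference 0.23, limma adjusted p = 0.134) and Ids, the iduronate sulfatase (24.2 ± 1.41 and 28.0 ± 3.53 FPKM, difference 0.20, limma adjusted p = 0.238). Of 11 genes listed under hyaluronan binding and turnover, among them Hpse2, 5 were tested. Of these, 0 were called by limma or voom and 0 had an unadjusted p below 0.05 in limma. The hyaluronan receptors Hmmr (101 ± 6.23 and 112 ± 7.39 FPKM, limma adjusted p = 0.238) and Cd44 (65.0 ± 3.83 and 75.6 ± 14.1 FPKM, limma adjusted p = 0.334) were both abundant. Of 7 genes of keratan sulfate, a related chain, 2 were tested. Chst1, which sulfates the galactose of that chain, fell from 11.1 ± 0.982 to 6.79 ± 0.796 FPKM (difference -0.63, SE 0.107, limma adjusted p = 0.00802), and B4galt4, a galactosyltransferase, was at 14.2 ± 1.99 and 16.8 ± 1.71 FPKM (limma adjusted p = 0.249).

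Core proteins, which carry the chains, moved in both directions. Of 24 listed 12 were tested, with 2 called higher (8.04% over all genes) and 2 lower (5.34%). Sdc2, the transmembrane heparan sulfate proteoglycan syndecan-2, was at 2.81, 2.43 and 3.60 FPKM with GFP-Rgnef and 12, 12.1 and 15.1 FPKM in the knockout. The groups lay far apart (difference 1.84, SE 0.136, limma adjusted p = 0.000262), and the call held in every alternative. Gpc1, the membrane-anchored heparan sulfate proteoglycan glypican-1, rose from 11.6 ± 0.987 to 21.2 ± 5.61 FPKM (difference 0.79, SE 0.162, limma adjusted p = 0.0169). Agrn, the heparan sulfate proteoglycan agrin of basement membranes, fell from 15.1 ± 1.66 to 10.6 ± 1.58 FPKM (difference -0.48, limma adjusted p = 0.0362). Dcn, the small chondroitin or dermatan sulfate proteoglycan decorin, fell from 58.9 ± 13.8 to 32.8 ± 8.32 FPKM (difference -0.83, limma adjusted p = 0.0426). The last 3 were less steady than Sdc2. The Gpc1 call was lost without GFP-Rgnef replicate 1 or GFP-Rgnef replicate 2 (limma adjusted p up to 0.0581), the Agrn call without GFP-Rgnef replicate 1 or 2 or knockout replicate 2 or 3 (up to 0.133), and the Dcn call without any 1 library but GFP-Rgnef replicate 3 (up to 0.140). All 3 calls were also lost without the filter (limma adjusted p 0.0522, 0.0866 and 0.112). The Agrn and Dcn calls were lost with TPM scaling (limma adjusted p 0.051 and 0.0516) and with chromosome medians removed (0.0802 and 0.0624). Dcn was also not called in limma without trend.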

How the data were processed

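Messenger RNA of 6 libraries was poly-T selected, prepared with a NEBNext Ultra kit and sequenced on an Illumina HiSeq, per the labels' protocols. The authors deposited 1 table of FPKM values for 35275 identifiers. The submitters' processing notes name CASAVA 1.8, TopHat2 2.0.9, DESeq2 and mm10; the read counter, its annotation and any use of strand are not given in the sources used here. GENCODE mouse release M 21 gave symbols for 34490 identifiers. Whole reads were recovered from the deposited FPKM for 99.99% of 19655 genes above 0 (tolerance 0.02 reads), at the annotated exon length for 4228 genes and at the smallest fitting length for 15426. Recovered reads summed to 99.77 to 99.85% of the implied depths. Counting error is relatively larger for genes with few reads.

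Groups came from the sample labels. Genes reaching a mean of 0.5 FPKM over the libraries (11500) were transformed to log2(FPKM + 1) and fitted with limma (version 3.58.1, trend option, under R 4.3.3). P-values were adjusted by Benjamini-Hochberg over all of them, and a call was an adjusted p below 0.05. Alternatives covered the pseudocount, filter, scaling, variance model, voom on recovered reads (the limma count method), replicate block, chromosome medians and libraries left out. Exon overlaps came from bedtools 2.31.1, and promoters from RefSeq (GRCm38.p6), which matched 35 of the 44 genes. The scripts were tested on simulated data. Python 3.11.15 made the tables (pandas 2.3.3, numpy 2.4.6) and the plots (matplotlib 3.10.9). The members and all lists were chosen with earlier results of these data known. All members are named, and from each other list the called genes (at most 4, by p) and, where fewer than 2 were called, its most abundant measured genes. Genes below the filter were tested in the alternative without it. With libraries left out, the filter used the mean of the remaining libraries, so the set of tested genes differed slightly.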

Additional observations from a re-analysis of the deposited data

How the results depend on the processing

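Over the named genes and alternatives, 651 differences kept their sign and their side of the threshold, 51 lost the call, 14 gained it and 17 changed sign. The sign changes fell in 9 enzyme genes, none of them called with all 6 libraries or in those alternatives. With chromosome medians removed Glce was at -0.19 and Hyal2 at -0.10, and without both libraries numbered 3 Ugdh was at 0.0293 and Papss1 at -0.0144. Leaving out 1 library gave -0.12 to 0.0926 for Ugdh, -0.0311 to 0.0511 for Papss1, -0.0471 to 0.17 for Hs3st1, -0.0065 to 0.12 for Ndst2, -0.0013 to 0.17 for Glce, -0.18 to 0.0137 for Xylt2, -0.0128 to 0.0633 for B3galt6 and -0.0496 to 0.13 for Csgalnact2. Over all genes, 925 were called higher and 614 lower. With the replicate number as a block these counts were 1517 and 1253, and for the listed enzymes 10 and 2, with 7 other pathway genes called higher. The numbers may not pair the samples: deviations of libraries with the same number correlated at 0.32, -0.02 and 0.55, and GFP-Rgnef replicate 2 correlated better with knockout replicate 1 (0.40) than with its own number. With chromosome medians removed, 491 genes were called higher and 384 lower, and 2 other pathway genes lower. Without a filter 394 genes were called lower, and 1 other pathway gene each way. TPM scaling left 3 other pathway genes lower. Without both libraries numbered 3, 1059 genes were called lower, 10 enzymes higher and 2 lower, and 5 other pathway genes higher. Leaving out 1 library at a time gave 458 to 848 genes higher and 198 to 580 lower, 3 to 8 enzymes higher and 1 to 2 lower, and 1 to 3 other pathway genes higher and 1 to 4 lower. Fewer libraries enter the fits with libraries left out, and which library was left out also differs between them. The cause of the changed counts was not tested for any setting. Depth limits the 12 enzyme genes below the filter, which reached at most 40 reads and have a large counting error. Without the filter 42 of the 44 enzymes were tested, with 7 called higher and 1 lower.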
